A study of Rattus norvegicus with 16 samples.

Results

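Basement membrane genes were followed across 4 tendons of the Sprague Dawley rat. They were chosen by name: 32 genes for the chains, linkers, receptors and bound proteins of basement membranes were looked up in the gene names of the deposited count table, and 30 of its 23285 genes matched. Lama3 and Hspg2 had no row under those names. A row named AABR07073181.1 (ENSRNOG00000021437), which RefSeq lists as an older name of Hspg2, the gene of perlecan, is described once below and kept out of every count. All 30 matched genes passed the filter on low counts and were tested.

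The hindlimb tendons were the Achilles and the patellar tendon. Those of the forelimb were the forepaw flexor and, at the shoulder, the supraspinatus tendon. Each had 4 libraries of total RNA. All were normal tissue of the same strain, and no treatment, age or sex is given in the labels. The tendons were compared with each other in 6 pairs and all 4 together. The titles number the libraries 1 to 4 after the word Rat within each tendon. The labels do not say that these are separate animals, or whether a number marks the same animal in each tendon. The p-values therefore measure the spread between these samples, which may be technical. Values in single libraries are given in the order of those numbers.

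A basement membrane is a thin sheet of matrix under epithelium and endothelium and around muscle fibres, fat cells and Schwann cells. Laminins, heterotrimers of an alpha, a beta and a gamma chain, polymerise on the cell surface by binding integrins and dystroglycan, and collagen IV, a trimer of alpha chains, forms the covalent network beneath. Nidogens and the heparan sulfate proteoglycans perlecan and agrin join the layers. In a tendon these sheets are found, among other places, in vessels, nerves, fat and around the muscle fibres at its end. Most of the matrix around the tenocytes is fibrillar collagen. Which cells the RNA of these genes came from was not tested. In such bulk samples fewer cells of a type and less RNA per cell cannot be told apart.

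The 6 collagen IV genes lie as head-to-head pairs whose starts face away from each other on opposite strands. In the RefSeq annotation of the rat build GRCr8 the starts of Col4a1 and Col4a2 were 76 bases apart on chromosome 16, those of Col4a3 and Col4a4 were 412 bases apart on chromosome 9, and those of Col4a5 and Col4a6 were 1414 bases apart on chromosome X. Sequences are shown for the stretch shared by Col4a1 and Col4a2, because these genes differed together between tendons, for Col4a3 as one of the minor chains, which was highest on average in the flexor tendon, and for Fras1 and Frem2, because these 2 genes were highest in the supraspinatus tendon. The shared stretch lies at chr16:84885521-84885596 and is given on the plus strand, the strand of Col4a1. The others are the 250 bases before each start, 5′ to 3′ on the strand of the gene: chr9:91323740-91323989 on the plus strand for Col4a3, chr14:13504665-13504914 on the minus strand for Fras1 and chr2:139891047-139891296 on the minus strand for Frem2. Capitals mark matches on either strand to the GC box GGGCGG, the CCAAT box CCAAT or the TATA box TATAAA.
Col4a1 to Col4a2: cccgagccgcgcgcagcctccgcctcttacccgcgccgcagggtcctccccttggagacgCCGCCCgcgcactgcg
Col4a3: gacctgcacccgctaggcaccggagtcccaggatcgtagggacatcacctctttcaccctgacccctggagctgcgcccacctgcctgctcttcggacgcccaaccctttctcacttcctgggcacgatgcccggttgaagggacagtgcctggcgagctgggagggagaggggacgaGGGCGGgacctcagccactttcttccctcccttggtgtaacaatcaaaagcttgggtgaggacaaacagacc
Fras1: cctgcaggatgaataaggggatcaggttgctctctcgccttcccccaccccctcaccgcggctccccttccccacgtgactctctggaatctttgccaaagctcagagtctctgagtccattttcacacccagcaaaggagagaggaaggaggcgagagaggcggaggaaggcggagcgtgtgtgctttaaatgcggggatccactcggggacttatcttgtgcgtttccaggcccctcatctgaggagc
Frem2: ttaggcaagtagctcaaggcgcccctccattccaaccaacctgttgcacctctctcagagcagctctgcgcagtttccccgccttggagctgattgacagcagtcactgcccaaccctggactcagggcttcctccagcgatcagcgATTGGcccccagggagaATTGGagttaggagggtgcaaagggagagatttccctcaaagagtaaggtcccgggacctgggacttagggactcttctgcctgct
The Col4a1 to Col4a2 stretch held 1 GC box and was 78.9% G and C, and the Col4a3 stretch held 1 GC box and was 62% G and C. The Fras1 stretch held none of the 3 motifs and the Frem2 stretch held 2 CCAAT boxes. Promoter entries were found for 26 of the 30 genes, and 17 of these (65.4%) had a GC box in the 250 bases before the start, against 30.5% of 33469 promoters of the same length in the table. This background was not selected by kind of gene or by expression in tendon, and the difference was not tested. For the CCAAT box the shares were 30.8% and 34%, and for the TATA box 7.69% and 12.9%. A match describes the letters in the window and is not evidence of a bound factor.

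Library totals ranged from 63397591 to 102491699 counts. Levels are given as CPM, a gene's counts relative to its library's total after scaling by TMM, a factor per library that sets most genes level between libraries, and 3 counts corresponded to 0.0266 to 0.0485 CPM. The TMM factors were 0.731 to 0.876 in the supraspinatus libraries and 1.01 to 1.16 in the others. Without them the median log2 fold change over all genes moved by 0.415 for Achilles or patellar against supraspinatus and by 0.344 for flexor against supraspinatus. Counts of calls against the supraspinatus tendon are therefore also given on library totals. For single genes, calls lost on library totals are given for Lamb2, Lamb3 and Fras1. Other calls lost there, and the calls gained, are not named here, so an unmarked gene may also depend on the scaling. As a look at the tendon label, 7 tendon fibroblast genes, all measured, summed to between 23780 and 128900 CPM in every library. Most of this sum was Col1a1, with means from 22730 CPM in the flexor to 85700 CPM in the Achilles, so the sum is a weak check. Tnmd, the tenomodulin gene of tenocytes, averaged from 274.5 CPM in the flexor to 764.9 CPM in the supraspinatus tendon.

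The summed level of the 30 genes was highest in the patellar tendon, at 6805 to 8033 CPM, followed by the Achilles at 4655 to 6318 CPM, with no library in common between these ranges. The flexor libraries lay between 4002 and 5135 CPM and the supraspinatus libraries between 3679 and 4494 CPM, and these overlapped. That overlap rests on the scaling. TMM factors of 0.731 to 0.876 raise the supraspinatus sums, and factors of 1.01 to 1.05 lower the flexor sums. The ranges are a description and were not tested as a sum. In edgeR's quasi-likelihood test 26 of the 30 genes differed among the 4 tendons at an adjusted p under 0.05, against 75.6% of all 16948 genes tested, so that differing among the tendons was common to most genes. The 4 that did not pass were Col4a6 (adjusted p = 0.164), Col15a1 (adjusted p = 0.115), Lama4 (adjusted p = 0.270) and Smoc2 (adjusted p = 0.0804).

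**Figure D1:**
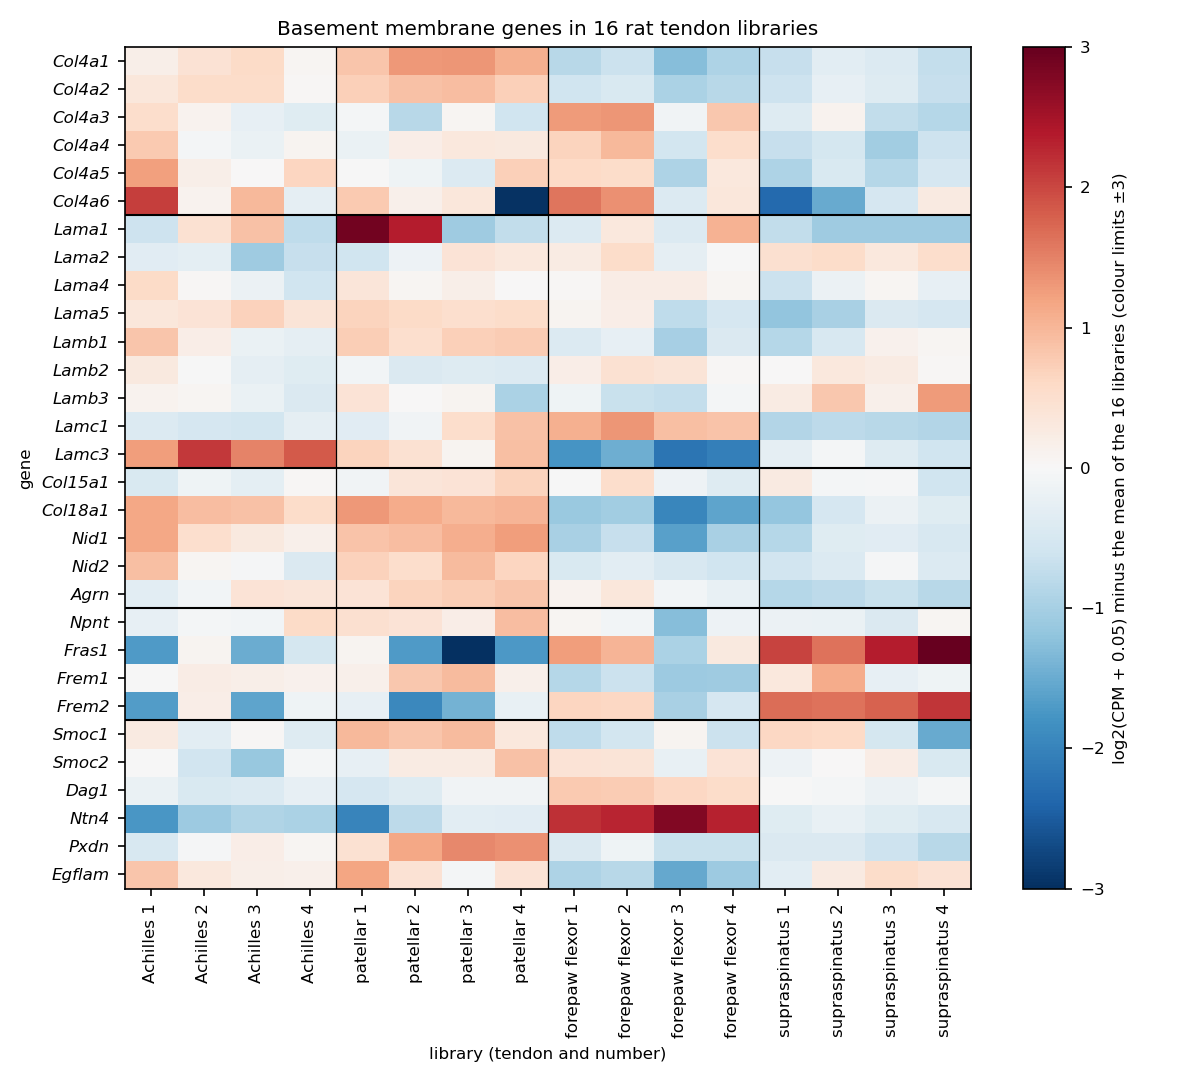
Level of each basement membrane gene (rows, grouped by role) in each of the 16 libraries (columns, 4 per tendon), as log2 of CPM relative to the mean of the gene over the libraries, with the colour scale limited at 3 in each direction. Col4a1, Col18a1 and Nid1 are high in the 8 Achilles and patellar libraries, Ntn4 in the 4 flexor libraries, and Fras1 and Frem2 in the 4 supraspinatus libraries.

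Achilles and patellar tendon differed in 4 of the 30 genes, against 5.16% of all genes. In the Achilles 1 was higher, against 3.1% of all genes, and in the patellar tendon 3, against 2.06%. The median log2 fold change of the 30 genes was -0.42 beside -0.01 over all genes, on the side of the patellar tendon. Achilles and flexor differed in 15 genes, against 47.7% of all genes, with 10 higher in the Achilles (23.5% of all genes) and 5 higher in the flexor tendon (24.1%). Their median was 0.17 beside 0.01.

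Against the supraspinatus tendon, 16 genes differed in the Achilles, against 50.1% of all genes, with 11 higher in the Achilles (25.4% of all genes) and 5 higher in the supraspinatus tendon (24.7%). In the patellar tendon 18 differed, against 56.4%, with 14 higher in the patellar (28.8%) and 4 higher in the supraspinatus tendon (27.5%). The medians were 0.43 beside 0.05 for the Achilles and 0.77 beside 0.05 for the patellar tendon. In the flexor tendon 15 genes differed from the supraspinatus tendon, against 47.7% of all genes, with 8 higher in the flexor (23.4%) and 7 higher in the supraspinatus tendon (24.3%) and a median of 0.0 beside -0.03. On library totals the shares over all genes moved as well. The splits were then 17 higher and 3 lower in the Achilles (49.7% and 13.4% of all genes), 20 higher and 2 lower in the patellar (49.7% and 14.9%) and 11 higher and 4 lower in the flexor tendon (38.9% and 10.8%). The flexor and patellar tendons differed in 20 genes, against 50.5% of all genes, with 6 higher in the flexor (25.8%) and 14 higher in the patellar tendon (24.7%) and a median of -0.48 beside 0.03. These shares of called genes lay near the background in every pair except flexor against patellar and Achilles against patellar, where 20 and 4 of 30 genes stood beside 50.5% and 5.16%, a difference that was not tested. Pairs that include the same tendon share its libraries. In the authors' deposited table, which lists 28 of the 30 genes, an FDR under 0.05 was given for 5 genes in Achilles against patellar, 17 in Achilles against flexor, 16 in Achilles against supraspinatus, 20 in flexor against patellar, 16 in flexor against supraspinatus and 19 in patellar against supraspinatus. For Achilles against patellar these included Nid1 (FDR 0.0493) and Nid2 (FDR 0.0062), which did not pass here, and not Lamc1 (FDR 0.0688). Some Achilles folds differed too. For Nid2 in Achilles against supraspinatus the authors' log2 fold change was 0.22, beside 0.55 here. Here it ranged from 0.22 to 0.72 with 1 library left out at a time. Which libraries the authors' Achilles values rest on is not known, so the counts may not compare like with like.

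**Figure D2:**
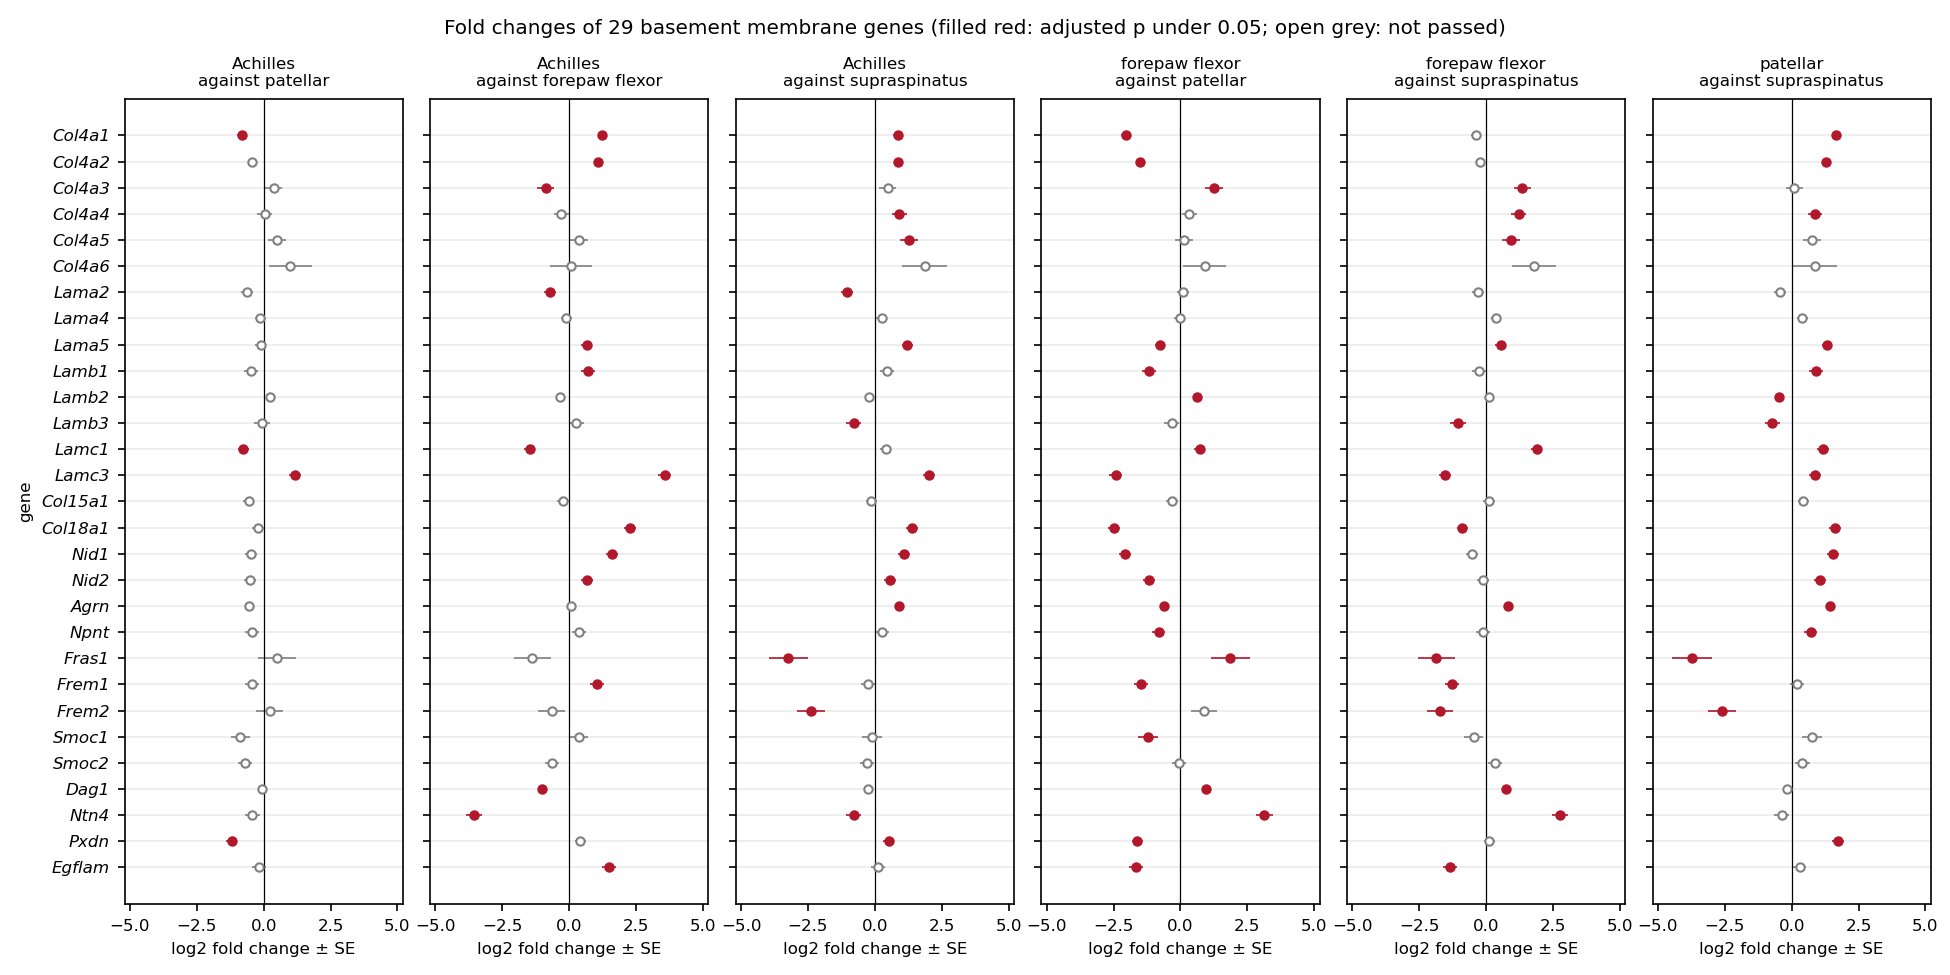
Log2 fold change between tendons of 29 basement membrane genes in each of the 6 pairs, with bars of 1 standard error from edgeR's quasi-likelihood test and filled points for an adjusted p under 0.05. Lama1, with at most 60 counts in a library, is left out, and the widest differences are those of Fras1, Lamc3 and Ntn4.

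Of the 6 collagen IV chains 5 differed among the 4 tendons, against 75.6% of all genes. Col4a1 (ENSRNOG00000016281), the alpha 1 chain that with alpha 2 makes the collagen IV of nearly all basement membranes, stood at 1862, 2588, 2633 and 2210 CPM in the patellar libraries. In the Achilles libraries it stood at 1190, 1425, 1567 and 1094 CPM. It was lower in both forelimb tendons, at 591.8, 668.4, 435.2 and 548.4 CPM in the flexor and 648.9, 837.7, 788.8 and 643.3 CPM in the supraspinatus libraries. Every patellar library was above every Achilles library, and every Achilles library was above every flexor and supraspinatus library. The log2 fold change was 2.05 ± 0.17 (SE) for patellar over flexor, given as -2.05 for flexor against patellar (adjusted p = 7.7e-07), and 1.67 ± 0.17 for patellar against supraspinatus (adjusted p = 3.7e-06). It was 1.23 ± 0.17 for Achilles against flexor (adjusted p = 5.1e-05), 0.85 ± 0.17 for Achilles against supraspinatus (adjusted p = 0.00077) and -0.82 ± 0.17 for Achilles against patellar (adjusted p = 0.015). The last of these lost its call without patellar 2 (adjusted p = 0.0527) or patellar 3 (adjusted p = 0.0558). Flexor and supraspinatus did not differ past the threshold for Col4a1, with a log2 fold change of -0.38 and an adjusted p of 0.077.

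Col4a2, whose alpha 2 chain joins that of Col4a1, had the same order of means, 984 ± 71.2 CPM in the patellar, 732 ± 115 in the Achilles, 404 ± 58.1 in the supraspinatus and 346 ± 54.7 in the flexor tendon (SD, n = 4). Its fold changes were smaller than those of Col4a1 in the pairs with the patellar tendon, -1.51 ± 0.15 for flexor against patellar (adjusted p = 2.8e-06) and 1.28 ± 0.15 for patellar against supraspinatus (adjusted p = 9e-06). Achilles and patellar did not differ past the threshold for Col4a2 (log2 fold change -0.43, adjusted p = 0.11), though their libraries did not overlap.

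The chains of the minor collagen IV networks, alpha 3 to alpha 6, were not highest on average in the patellar tendon. Col4a3, known for the basement membrane of the kidney glomerulus, was highest in the flexor tendon at 8.45 ± 3.27 CPM, with means of 3.3 to 4.58 CPM elsewhere. It was higher in the flexor than in the patellar (log2 fold change 1.26 ± 0.33, adjusted p = 0.0052) and the supraspinatus tendon (1.36 ± 0.33, adjusted p = 0.0034), with overlapping libraries in both pairs. Its head-to-head neighbour Col4a4 averaged 61.2 ± 23.4 CPM in the flexor, 49.9 ± 16.6 in the Achilles, 48.5 ± 7.51 in the patellar and 26.4 ± 3.9 in the supraspinatus tendon. Col4a4 was lower in the supraspinatus than in each other tendon, by 0.88 ± 0.28 to 1.21 ± 0.28 on the log2 scale (largest adjusted p = 0.014, for the patellar tendon).

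Col4a5, the X-linked alpha 5 chain, stood at 53.9, 26, 23 and 36.1 CPM in the Achilles and 12.1, 16.8, 12.6 and 16.2 CPM in the supraspinatus libraries, with no overlap (log2 fold change 1.27 ± 0.34, adjusted p = 0.006). Its flexor libraries stood at 34.8, 33.5, 12.2 and 28.5 CPM and its patellar libraries at 22.7, 21.1, 17.2 and 37.6 CPM. Achilles 1 was the highest library and flexor 3 fell among the supraspinatus libraries. Col4a6, with 3 to 320 counts a library, averaged 0.371 to 1.34 CPM and passed no pair.

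Nerve markers moved with these chains in part of the libraries. The sum of 13 Schwann cell genes was 5826 CPM in Achilles 1 and 599.1 to 782.7 CPM in the other Achilles libraries, 1408 CPM in flexor 3 and 2194 to 2601 CPM in the other flexor libraries, and 237.1 to 359.6 CPM in the supraspinatus tendon. Within the Achilles and within the flexor tendon, Col4a3, Col4a4, Col4a5 and Col4a6 were highest in Achilles 1 and lowest in flexor 3. This was not particular to these chains, since Col18a1, Lamb1, Nid1 and Egflam were also highest in Achilles 1 and lowest in flexor 3. Nor was it particular to nerve markers. Among the flexor libraries, flexor 3 also had the lowest sums of muscle (14840 CPM), endothelial (799.1), pericyte and smooth muscle (996.6) and adipocyte genes (553.9 CPM). In the patellar tendon the minor chains did not follow the Schwann cell sums, which were 1116, 866.4, 652.7 and 466.2 CPM. Col4a4 stood there at 37.6, 49.4, 53.9 and 53 CPM, lowest in the library with the most Schwann cell RNA. Col4a5 was highest in the patellar library with the least. With the Schwann cell score as a covariate the flexor against supraspinatus log2 fold change was 0.07 for Col4a3 (adjusted p = 0.96) and 0.01 for Col4a4 (adjusted p = 0.99), and that of Col4a5 between Achilles and supraspinatus was 0.10 (adjusted p = 0.92). Without Achilles 1 and patellar 1 the last was 0.96 (adjusted p = 0.026). These losses were not particular to the Schwann cell score. Of the 4 covariates, the Col4a5 call between Achilles and supraspinatus remained with 0. The flexor against supraspinatus calls of Col4a3 and Col4a4 remained with 2 each.

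**Figure D3:**
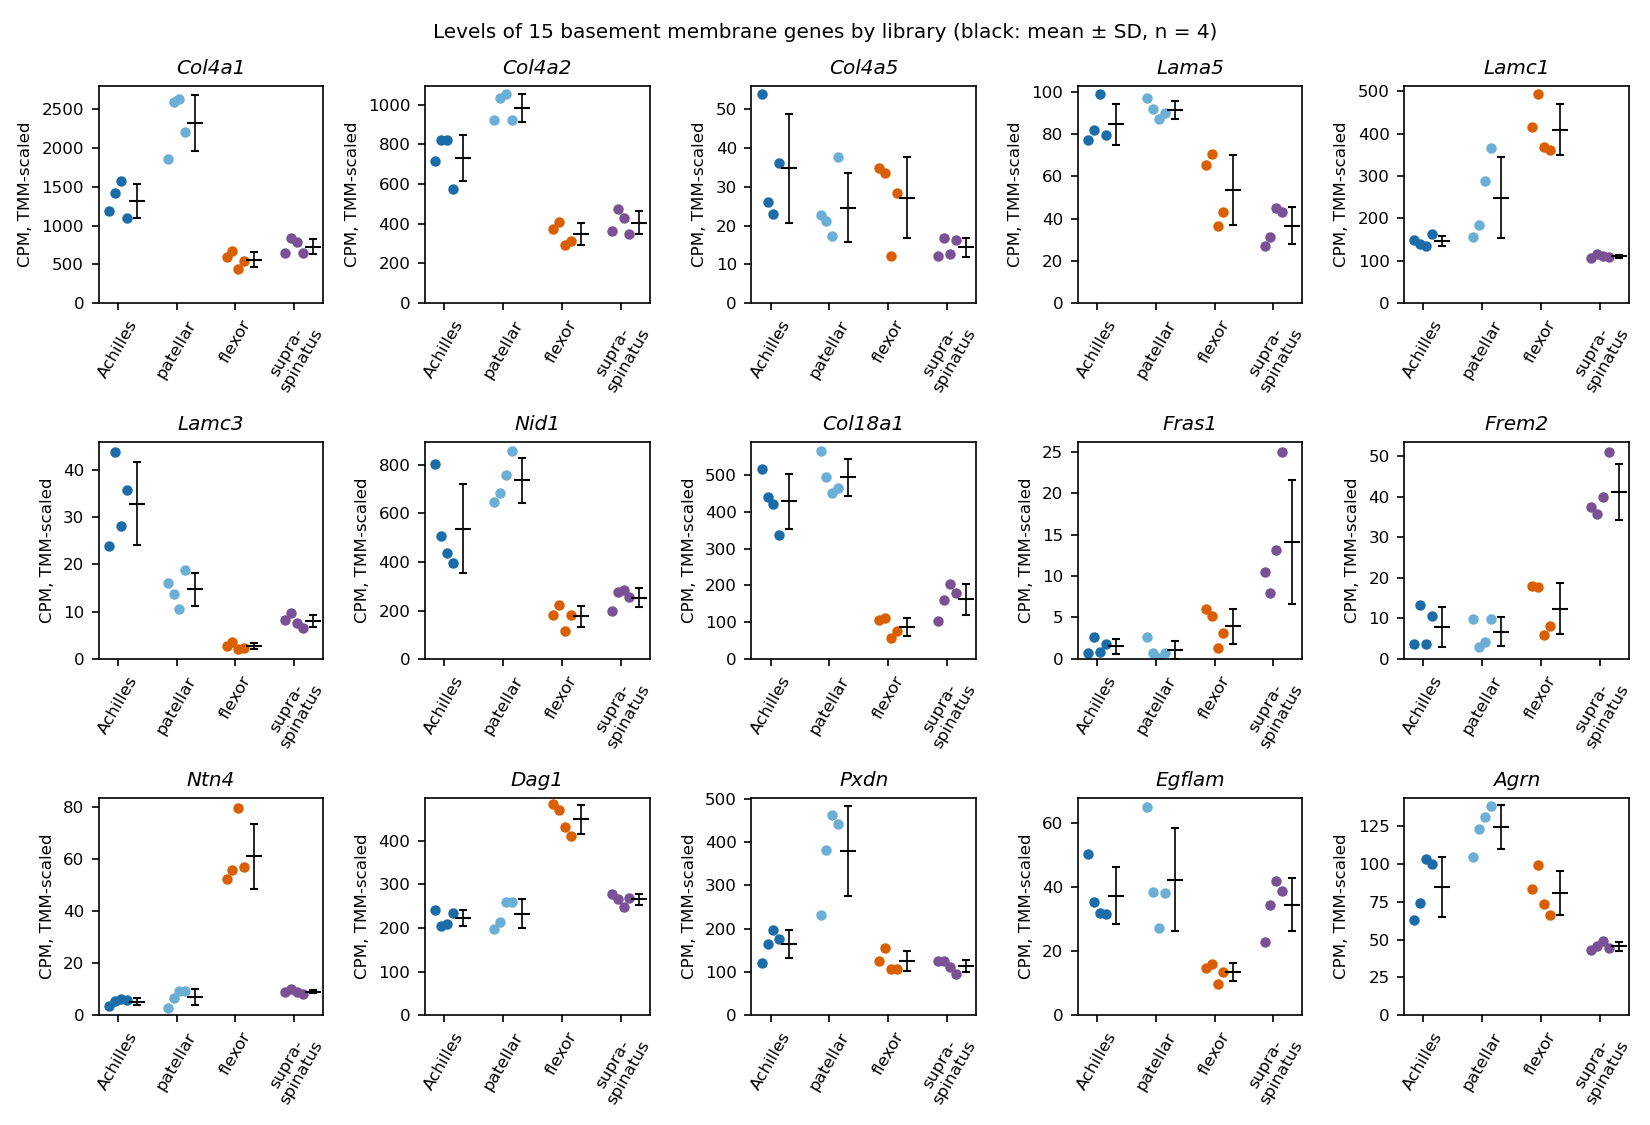
CPM in each library (points) of 15 basement membrane genes by tendon, with the mean and 1 SD over 4 libraries. Each panel has its own linear axis from 0, except that of Fras1, which starts just under 0 to hold the bar of the patellar tendon. The panels show the patellar and Achilles excess of Col4a1, the flexor excess of Ntn4 and Lamc1, the supraspinatus excess of Fras1 and Frem2 and the descending order of Lamc3 from the Achilles.

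Among the linking proteins and proteoglycans, 4 of 5 differed among the 4 tendons, near the 75.6% of all genes. Col18a1 (ENSRNOG00000001229), a heparan sulfate collagen of vessel and epithelial basement membranes whose end fragment is endostatin, stood at 515.8, 438.7, 419.5 and 335.9 CPM in the Achilles and 563.5, 493.8, 450.8 and 463.5 CPM in the patellar libraries. It stood at 106.2, 110.8, 58.7 and 76.4 CPM in the flexor and 103.4, 161.2, 204.3 and 179.5 CPM in the supraspinatus libraries. The lowest hindlimb library was above the highest forelimb library. In log2 units the fold change was -2.48 ± 0.23 for flexor against patellar (adjusted p = 1.7e-06), 2.28 ± 0.23 for Achilles against flexor (adjusted p = 3.8e-06), 1.60 ± 0.23 for patellar against supraspinatus (adjusted p = 4e-05) and 1.40 ± 0.22 for Achilles against supraspinatus (adjusted p = 0.00014). Col15a1, its relative in the multiplexin family, had means of 25.6 to 37.9 CPM and passed no pair.

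Nid1 (ENSRNOG00000002461), nidogen 1, which binds the laminin gamma 1 chain and collagen IV, stood at 647.9, 682.9, 759 and 857 CPM in the patellar and 801.7, 508.9, 439 and 396.6 CPM in the Achilles libraries. It stood at 181.3, 222.9, 116.2 and 183.4 CPM in the flexor and 197.3, 276.6, 284.2 and 256.3 CPM in the supraspinatus libraries. Hindlimb and forelimb libraries did not overlap, and Achilles 1 was well above the other Achilles libraries. By edgeR's quasi-likelihood test the log2 fold change was -2.07 ± 0.23 for flexor against patellar (adjusted p = 7.6e-06), 1.54 ± 0.23 for patellar against supraspinatus (adjusted p = 6.8e-05) and 1.61 ± 0.23 for Achilles against flexor (adjusted p = 6.7e-05). Nid2, its paralogue, was highest in the patellar tendon at 155 ± 19 CPM and differed from the flexor (68.8 ± 5.36 CPM) and supraspinatus tendon (74.5 ± 12.5 CPM), with log2 fold changes of -1.17 ± 0.22 (adjusted p = 0.00052) and 1.06 ± 0.22 (adjusted p = 0.00098). The Achilles mean of Nid2, 109 ± 46.9 CPM, rested on Achilles 1 at 177.3 CPM, and its call against the flexor tendon ended without that library (adjusted p = 0.0774).

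Agrn, the gene of agrin, which organises the neuromuscular synapse and also coats vessels, was lowest in the supraspinatus tendon at 45.4 ± 2.75 CPM. It averaged 124 ± 14.6 CPM in the patellar, 84.8 ± 19.7 in the Achilles and 80.7 ± 14.3 in the flexor tendon, and no library of these overlapped the supraspinatus range. The log2 fold change was 1.45 ± 0.16 for patellar against supraspinatus (adjusted p = 6.4e-06). The row listed as perlecan, the other large heparan sulfate proteoglycan, stood near one level in all tendons. AABR07073181.1 averaged 231 ± 16.6 CPM in the Achilles, 251 ± 21.6 in the patellar, 225 ± 24 in the flexor and 226 ± 10.8 in the supraspinatus tendon, with an adjusted p of 0.376 among the 4 tendons. A p that misses the threshold does not show that its levels were equal.

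Laminin chains divided by chain. Of 9 measured, 8 differed among the 4 tendons, against 75.6% of all genes. Among the alpha chains, which carry the receptor-binding domains, Lama2, the chain of muscle and Schwann cell laminin, was highest in the supraspinatus tendon at 197 ± 14.7 CPM and lowest in the Achilles at 95.7 ± 22.2 CPM, without overlap (log2 fold change -1.04 ± 0.23, adjusted p = 0.0016). Lama4, a chain of vessel and fat laminin, had means of 216 to 284 CPM and passed no pair here. In the authors' table its patellar against supraspinatus log2 fold change was 0.40, with an FDR of 0.034. Lama5, a chain of mature vessels and epithelia, stood at 77.4, 81.9, 99.2 and 79.8 CPM in the Achilles and 97, 92.1, 86.9 and 89.9 CPM in the patellar libraries. It stood at 65.2, 70.4, 36.3 and 43.1 CPM in the flexor and 26.9, 31.5, 45.2 and 43 CPM in the supraspinatus libraries. The hindlimb libraries lay above those of both forelimb tendons, and the latter overlapped. In log2 units the fold change was 1.32 ± 0.20 for patellar against supraspinatus (adjusted p = 8.7e-05), 1.21 ± 0.20 for Achilles against supraspinatus (adjusted p = 0.00021) and -0.77 ± 0.20 for flexor against patellar (adjusted p = 0.0055).

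Lama1, the alpha 1 chain of embryonic laminin, was close to the limit of counting. It had 60, 34, 0 and 1 counts in the patellar libraries, 2, 9, 14 and 1 in the Achilles, 3, 8, 3 and 16 in the flexor and 1, 0, 0 and 0 in the supraspinatus libraries. No fold is given, since both sides include libraries at or under 3 counts. Patellar against supraspinatus passed in edgeR (adjusted p = 0.0067) and not in limma-voom (adjusted p = 0.105).

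The beta chains moved in opposite directions. Lamb1, the general beta 1 chain, was highest in the patellar tendon at 171 ± 13.5 CPM and lower in the flexor at 75.4 ± 15.4 and the supraspinatus at 90.7 ± 27.7 CPM. Its log2 fold change was -1.18 ± 0.26 for flexor against patellar (adjusted p = 0.0015) and 0.91 ± 0.25 for patellar against supraspinatus (adjusted p = 0.0071), without overlap. Lamb2, the beta 2 chain of synaptic and vascular laminin, was lowest in the patellar tendon at 833 ± 97.3 CPM and averaged 1269 ± 162 CPM in the flexor and 1161 ± 125 CPM in the supraspinatus tendon. Its log2 fold change was 0.61 ± 0.15 for flexor against patellar (adjusted p = 0.0046). That for patellar against supraspinatus was -0.48 ± 0.15 (adjusted p = 0.016) and became -0.07 on library totals (adjusted p = 0.748). Lamb3, a chain of the epithelial laminin, averaged 14.4 ± 5.4 CPM in the supraspinatus and 6.96 to 8.75 CPM in the other tendons. All 3 of its calls against the supraspinatus tendon were lost on library totals (adjusted p from 0.0586 to 0.409), and all were lost without supraspinatus 4, at 21.6 CPM its highest library.

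The gamma chains gave the widest differences of the laminins. Lamc1 (ENSRNOG00000002680), the gamma 1 chain of most laminins, stood at 415, 493.1, 368.1 and 361.1 CPM in the flexor and 107.3, 114.9, 111.7 and 108.6 CPM in the supraspinatus libraries. It stood at 148.4, 140.5, 135.3 and 163.3 CPM in the Achilles and 156.5, 185.6, 287.7 and 365.2 CPM in the patellar libraries. The flexor libraries were above all Achilles and supraspinatus libraries, while the patellar libraries spread widely and patellar 4 reached the flexor range. By edgeR's quasi-likelihood test the log2 fold change was 1.89 ± 0.21 for flexor against supraspinatus (adjusted p = 9.9e-06), -1.48 ± 0.21 for Achilles against flexor (adjusted p = 6.1e-05) and 0.72 ± 0.21 for flexor against patellar (adjusted p = 0.0096). The difference of Achilles and patellar passed narrowly (-0.76 ± 0.21, adjusted p = 0.047) and was lost on leaving out 14 of the 16 libraries one at a time.

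Lamc3 (ENSRNOG00000059507), the gamma 3 chain, was ordered Achilles, patellar, supraspinatus, flexor with no overlap between any 2 tendons. It stood at 24, 43.7, 28 and 35.6 CPM in the Achilles, 16, 13.7, 10.5 and 18.7 in the patellar, 8.34, 9.65, 7.59 and 6.54 in the supraspinatus and 2.88, 3.6, 2.15 and 2.38 in the flexor libraries. All 6 pairs passed. The log2 fold change was 3.58 ± 0.24 for Achilles against flexor (adjusted p = 2.4e-07), 2.03 ± 0.23 for Achilles against supraspinatus (adjusted p = 8.9e-06), 1.16 ± 0.22 for Achilles against patellar (adjusted p = 0.011), -2.42 ± 0.23 for flexor against patellar (adjusted p = 2e-06), -1.54 ± 0.23 for flexor against supraspinatus (adjusted p = 7.7e-05) and 0.88 ± 0.22 for patellar against supraspinatus (adjusted p = 0.0037). The 4 pairs with the Achilles or of flexor against patellar also passed with each of the 4 cell content covariates, at log2 fold changes for Achilles against flexor of 3.44 to 4.39.

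Fras1 and Frem2, large proteins that form a complex in the basement membrane of embryonic skin, were highest in the supraspinatus tendon. Frem2 (ENSRNOG00000021670) stood at 37.3, 35.7, 39.9 and 51 CPM in the supraspinatus libraries. It stood at 18, 17.7, 5.89 and 8.1 CPM in the flexor, 3.62, 13.4, 3.84 and 10.7 CPM in the Achilles and 9.8, 2.98, 4.32 and 9.95 CPM in the patellar libraries. No library of another tendon reached the supraspinatus range. In log2 units the fold change was -2.60 ± 0.52 for patellar against supraspinatus (adjusted p = 0.00069), -2.38 ± 0.51 for Achilles against supraspinatus (adjusted p = 0.0014) and -1.72 ± 0.50 for flexor against supraspinatus (adjusted p = 0.011).

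Fras1 (ENSRNOG00000002053) stood at 10.5, 7.93, 13.2 and 24.9 CPM in the supraspinatus and 6.05, 5.2, 1.29 and 3.08 CPM in the flexor libraries. It stood at 0.744, 2.67, 0.867 and 1.75 CPM in the Achilles and 2.68, 0.738, 0.119 and 0.725 CPM in the patellar libraries. The supraspinatus libraries again lay above all others. By edgeR's quasi-likelihood test the log2 fold change was -3.72 ± 0.76 for patellar against supraspinatus (adjusted p = 0.00084) and -3.23 ± 0.74 for Achilles against supraspinatus (adjusted p = 0.0022). For flexor against supraspinatus it was -1.85 ± 0.70 (adjusted p = 0.04), a call lost without any of 6 libraries, flexor 2, 3 or 4 or supraspinatus 1, 3 or 4 (adjusted p up to 0.149), and on library totals (-1.47, adjusted p = 0.087).

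Muscle markers moved with Fras1 and Frem2. The sum of 14 muscle fibre genes was 120900 to 226800 CPM in the supraspinatus, 14840 to 55680 in the flexor, 324.8 to 9594 in the Achilles and 300.7 to 29620 CPM in the patellar libraries. In all 4 tendons the library with the least muscle marker RNA, Achilles 1, patellar 3, flexor 3 and supraspinatus 2, was the lowest for Fras1, and in all but the patellar tendon it was also the lowest for Frem2. With the muscle score as a covariate the log2 fold change of Frem2 was -0.22 for patellar (adjusted p = 0.85) and -0.10 for Achilles against supraspinatus (adjusted p = 0.95), and that of Fras1 was -0.36 (adjusted p = 0.78) and 0.58 (adjusted p = 0.69). Scores other than muscle also ended calls of both genes. Against the supraspinatus tendon, Frem2 calls remained with 1 of the 4 covariates for Achilles, 1 for patellar and 0 for flexor. Those of Fras1 remained with 2, 2 and 0. The 10 epithelial genes summed to 19.9 to 27.07 CPM in the supraspinatus and 10.92 to 43.99 CPM in the other libraries. Of these, Krt5, Krt14, Krt15 and Dsg1 had at most 3 counts in every supraspinatus library, while Tp63 was highest there, at 10.6 ± 2.56 CPM beside means of 0.477 to 2.1 CPM, and passed against each other tendon. The part of epithelial RNA in the levels of Fras1 and Frem2 was not tested.

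Frem1, a relative that joins the same complex, did not share that pattern. It averaged 3.78 ± 0.556 CPM in the flexor tendon and 7.75 to 10.5 CPM in the others, and was lower in the flexor in all 3 pairs (smallest difference 1.04 ± 0.27 on the log2 scale for Achilles against flexor, adjusted p = 0.0056), without overlap. Npnt, nephronectin, a ligand of integrin alpha 8 beta 1, averaged 17.4 ± 3.79 CPM in the patellar and 9.89 ± 3.37 CPM in the flexor tendon (log2 fold change for flexor against patellar -0.82 ± 0.26, adjusted p = 0.016).

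Of the remaining proteins bound to basement membranes, Ntn4 gave the clearest separation of the flexor tendon. Ntn4 (ENSRNOG00000005573), netrin 4, which binds the laminin gamma 1 chain and opens the laminin network, stood at 52.2, 55.7, 79.5 and 56.7 CPM in the flexor libraries. It stood at 3.36, 5.39, 6.1 and 5.9 CPM in the Achilles, 2.85, 6.68, 9.15 and 9.11 CPM in the patellar and 8.88, 9.86, 8.89 and 8.27 CPM in the supraspinatus libraries. The lowest flexor library was above every library of the other tendons. The log2 fold change was -3.56 ± 0.31 for Achilles against flexor (adjusted p = 1.3e-06), 3.13 ± 0.31 for flexor against patellar (adjusted p = 2.5e-06) and 2.77 ± 0.30 for flexor against supraspinatus (adjusted p = 7.9e-06). With the endothelial score as a covariate the flexor against patellar value of Ntn4 was 1.75 (adjusted p = 0.12), and the other 2 pairs passed with every covariate.

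Dag1 (ENSRNOG00000019400), dystroglycan, the laminin receptor of muscle and Schwann cells, was also highest in the flexor tendon. It averaged 449 ± 34.2 CPM there, 266 ± 12.5 in the supraspinatus, 233 ± 32.6 in the patellar and 223 ± 18.7 CPM in the Achilles tendon, and the flexor libraries overlapped none of the others. In log2 units the fold change was -1.01 ± 0.11 for Achilles against flexor (adjusted p = 6.1e-06), 0.95 ± 0.11 for flexor against patellar (adjusted p = 8.2e-06) and 0.76 ± 0.11 for flexor against supraspinatus (adjusted p = 6.3e-05).

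Pxdn (ENSRNOG00000060614), peroxidasin, the enzyme that forms the sulfilimine bond between collagen IV trimers, stood at 232.3, 381, 461.6 and 440.5 CPM in the patellar and 121.4, 165.2, 196.2 and 176.3 CPM in the Achilles libraries. It stood at 126.2, 155.9, 107.2 and 107.4 CPM in the flexor and 125.1, 125.8, 110.5 and 96 CPM in the supraspinatus libraries. Every patellar library was above every other library, with patellar 1 the lowest of the 4. By edgeR's quasi-likelihood test the log2 fold change was 1.73 ± 0.21 for patellar against supraspinatus (adjusted p = 1.3e-05), -1.61 ± 0.21 for flexor against patellar (adjusted p = 2.4e-05) and -1.20 ± 0.21 for Achilles against patellar (adjusted p = 0.006). These 3 pairs passed with each of the 4 covariates.

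Egflam (ENSRNOG00000012058), pikachurin, a dystroglycan ligand, was lowest in the flexor tendon. It stood at 14.9, 15.9, 9.76 and 13.4 CPM in the flexor, 23, 34.3, 42 and 38.7 CPM in the supraspinatus, 50.5, 35.3, 32 and 31.7 CPM in the Achilles and 65.1, 38.5, 27.3 and 38.2 CPM in the patellar libraries. The flexor libraries overlapped none of the others, and the other tendons overlapped each other. The log2 fold change was -1.65 ± 0.26 for flexor against patellar (adjusted p = 0.00014), 1.47 ± 0.26 for Achilles against flexor (adjusted p = 0.00039) and -1.35 ± 0.26 for flexor against supraspinatus (adjusted p = 0.00065). With the endothelial score as a covariate the first of these was 0.36 (adjusted p = 0.64) and the second -0.04 (adjusted p = 0.95), while the third passed with every covariate. Smoc1, a calcium-binding matrix protein, averaged 38.6 ± 7.37 CPM in the patellar and 16.5 ± 4.85 CPM in the flexor tendon (log2 fold change for flexor against patellar -1.23 ± 0.37, adjusted p = 0.012). Its relative Smoc2 passed no pair here, while the authors' table gave -0.74 for Achilles against flexor, with an FDR of 0.0423.

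Ratios of partner or alternative chains within a library do not depend on the scaling between libraries, and 5 were tested by an exact permutation test over every partition of the 16 libraries into groups of 4, with p adjusted over the 5. Each is the log2 of the ratio of counts plus a pseudocount of 0.5. Since gene lengths cancel only between tendons, the ratios compare tendons and not the amounts of the 2 chains. Col4a1 to Col4a2 was 1.23 ± 0.15 in the patellar, 0.85 ± 0.10 in the Achilles, 0.85 ± 0.03 in the supraspinatus and 0.69 ± 0.09 in the flexor tendon (exact permutation p = 6.74e-05, adjusted p = 0.000112). As a plain ratio every patellar library, at 2.02 to 2.5, was above every other library, of which the highest was 1.91. Tendon held 83.7% of the sum of squares of this ratio, so that the pair shared its order of tendons without keeping a fixed proportion.

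Lamb1 to Lamb2 was -2.28 ± 0.15 in the patellar, -3.06 ± 0.22 in the Achilles, -3.73 ± 0.46 in the supraspinatus and -4.09 ± 0.41 in the flexor tendon (exact permutation p = 3.46e-05, adjusted p = 8.66e-05). Nid1 to Nid2 was 2.33 ± 0.14 in the Achilles, 2.25 ± 0.22 in the patellar, 1.77 ± 0.17 in the supraspinatus and 1.32 ± 0.36 in the flexor tendon (exact permutation p = 1.9e-05, adjusted p = 8.66e-05). The hindlimb libraries lay above the forelimb libraries in both ratios. Col4a5 to Col4a1 ran the other way, from -6.61 ± 0.61 in the patellar over -5.67 ± 0.28 in the supraspinatus and -5.31 ± 0.75 in the Achilles to -4.46 ± 0.48 in the flexor tendon (exact permutation p = 0.00117, adjusted p = 0.00146). Lama2 to Lama4 was highest in the supraspinatus tendon at -0.11 ± 0.36 and lowest in the Achilles at -1.40 ± 0.41 (exact permutation p = 0.0115, adjusted p = 0.0115).

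**Figure D4:**
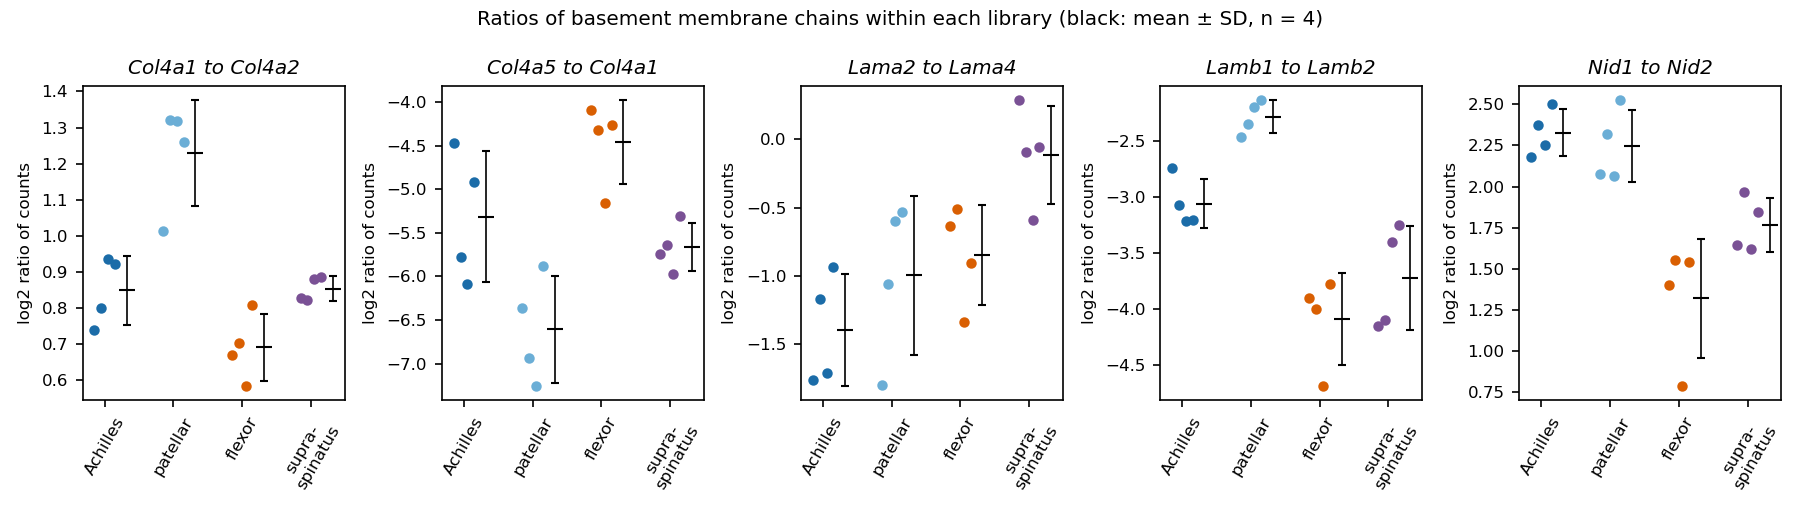
Log2 ratio of 5 pairs of basement membrane chains in each library (points), by tendon, with the mean and 1 SD over 4 libraries. The 4 patellar libraries are the highest for Col4a1 to Col4a2, and the hindlimb libraries lie above the forelimb libraries for Lamb1 to Lamb2 and Nid1 to Nid2.

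Summed marker RNA of some cell types that make basement membranes also differed between the tendons in the same libraries. Whether the numbers of these cells differed was not tested. The sum of 15 endothelial genes was 3362 to 4706 CPM in the patellar, 2776 to 3271 in the Achilles, 1098 to 2104 in the supraspinatus and 799.1 to 1415 CPM in the flexor libraries, the order of means of Col4a1, Col18a1 and Nid1. Of these 15 genes, 15 were higher in the patellar than in the flexor tendon, against 24.7% of all genes. Against the supraspinatus tendon 13 were higher in the patellar, beside 28.8% of all genes. The sum of 10 adipocyte genes was 3464 to 14080 CPM over the hindlimb libraries and 500.9 to 1335 CPM over the forelimb libraries. Of the 10, 9 were higher in the Achilles than in the flexor tendon, against 23.5% of all genes. The sum of 12 pericyte and smooth muscle genes overlapped between all tendons, at 996.6 to 2523 CPM. The 3 perineurial genes summed to 174.8 to 238.7 CPM in the flexor, and to 39.72 to 81.1 CPM elsewhere except in Achilles 1, at 176.3 CPM.

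**Figure D5:**
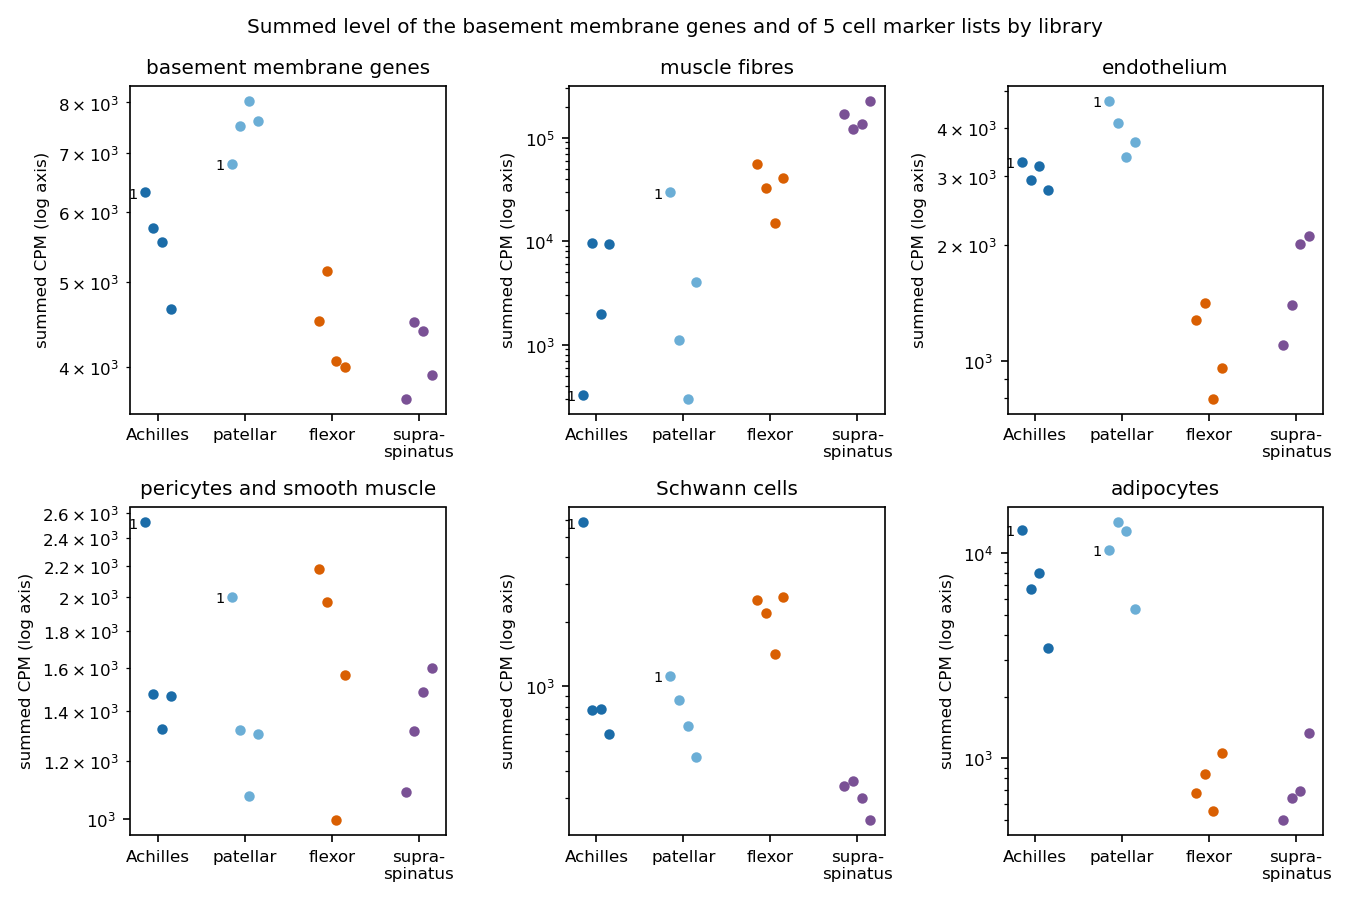
Summed CPM (log axis) of the 30 basement membrane genes and of marker genes of muscle fibres, endothelium, pericytes and smooth muscle, Schwann cells and adipocytes in each library (points), by tendon, with Achilles 1 and patellar 1 marked by their number. Muscle markers are highest in the supraspinatus libraries, endothelial and adipocyte markers in the Achilles and patellar libraries, and Schwann cell markers in Achilles 1.

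Neuromuscular junction genes, 6 in number, summed to 28.31 to 131.5 CPM in the forelimb and 11.72 to 23.76 CPM in the hindlimb libraries. Immune genes summed to 445.7 to 1528 CPM and epithelial genes to 10.92 to 43.99 CPM, both with overlap between tendons, and cartilage genes reached 364.2 to 4426 CPM in the supraspinatus and 77.55 to 339.7 CPM in the other libraries.

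Each of the 4 main cell content scores was entered in turn as a covariate beside tendon. A score that itself differs between tendons takes up part of the difference and widens the errors, so a lost call does not show that content accounts for it. Of the 88 calls of a gene in a pair, 56 remained with the muscle score, 39 with the endothelial score, 56 with the Schwann cell score and 28 with the adipocyte score. Calls that remained with each of the 4 numbered 18, and belonged to Agrn, Col18a1, Col4a1, Dag1, Egflam, Lamc1, Lamc3, Ntn4 and Pxdn. Calls lost with each of the 4 numbered 12. Col18a1 between Achilles and flexor was 0.92 with the endothelial score (adjusted p = 0.043) and 2.28 without it, whereas Col18a1 between flexor and patellar was -0.73 (adjusted p = 0.18). Nid1 between flexor and patellar was -1.18 with the endothelial score (adjusted p = 0.2), and Nid1 between patellar and supraspinatus passed with none of the 4. Lamc1 between flexor and supraspinatus ranged from 1.76 with the muscle score to 2.50 with the Schwann cell score, and Col4a1 between Achilles and patellar from -0.81 to -0.76, all past the threshold.

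Further genes of the pathway were read from 5 lists. Of 12 tested further basement membrane proteins all 12 differed among the 4 tendons, against 75.6% of all genes. Ntn1, netrin 1, a laminin-related guidance cue, averaged 49.5 ± 5.57 CPM in the flexor and 3.66 to 5.69 CPM in the other tendons (adjusted p = 3.5e-07 among the 4 tendons), so that 2 netrin genes were highest there. Papln, the papilin gene, averaged 44.9 ± 10 CPM in the patellar, 28.4 ± 5.53 in the Achilles and 8.11 to 11.9 CPM in the forelimb tendons. Col17a1, the collagen of hemidesmosomes, averaged 24.8 ± 7.14 CPM in the flexor and 7.11 to 14.6 CPM elsewhere.

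Of 14 receptors 12 differed among the 4 tendons, against 75.6% of all genes. In the flexor 6 were higher than in the supraspinatus tendon and 3 lower, against 23.4% and 24.3% of all genes. Itga6, a laminin-binding integrin alpha chain, averaged 138 ± 31.8 CPM in the flexor, 66.9 ± 9.28 in the patellar and 34.5 ± 2.6 CPM in the supraspinatus tendon (log2 fold change for flexor against patellar 1.05 ± 0.16, adjusted p = 9.2e-05). Lrp4, the agrin receptor, averaged 67.2 ± 12.3 CPM in the flexor, 39.9 ± 8.69 in the supraspinatus and 13.2 to 16.2 CPM in the hindlimb tendons, so that the levels of Lrp4 and Agrn were ordered differently. Ddr1, a collagen receptor of epithelia and glia, was highest in the supraspinatus tendon at 60 ± 6.38 CPM.

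The enzymes that process collagen and laminin differed among the 4 tendons in 9 of 13, near the 75.6% of all genes. P3h2, a prolyl 3-hydroxylase that acts on collagen IV, averaged 147 ± 26.6 CPM in the flexor and 6.71 to 11.3 CPM in the other tendons, with a log2 fold change of 4.46 ± 0.37 for flexor against patellar (adjusted p = 5.9e-07). The flexor tendon thus held the highest level of P3h2 and the lowest of Col4a1 and Col4a2. Colgalt2, a collagen galactosyltransferase, was likewise highest in the flexor at 35.2 ± 7.44 CPM beside 4.31 to 13.5 CPM elsewhere. Serpinh1, the collagen chaperone, averaged 1462 ± 203 CPM in the patellar, 1295 ± 186 in the Achilles, 852 ± 183 in the supraspinatus and 632 ± 111 CPM in the flexor tendon.

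The dystrophin complex, which ties dystroglycan to the cytoskeleton, differed among the 4 tendons in 9 of 11 genes, near the 75.6% of all genes. In the supraspinatus 8 were higher than in the Achilles tendon and 1 lower, against 24.7% and 25.4% of all genes. Sspn, sarcospan, averaged 194 ± 22.8 CPM in the supraspinatus, 114 ± 15.2 in the flexor and 48.1 to 57.6 CPM in the hindlimb tendons. Sgcb, a sarcoglycan, averaged 423 ± 82.8 CPM in the supraspinatus and 85.4 to 238 CPM in the others.

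Enzymes that glycosylate dystroglycan, and so fit it to bind laminin, differed among the 4 tendons in 8 of 10, near the 75.6% of all genes. In the supraspinatus 8 were higher than in the patellar tendon and none lower, against 27.5% and 28.8% of all genes. Pomgnt2 averaged 25.2 ± 3.37 CPM in the supraspinatus and 9.8 to 14.1 CPM elsewhere, and Pomk 61.1 ± 7.71 CPM in the supraspinatus and 34.6 to 53.1 CPM elsewhere. Muscle marker RNA was also highest in the supraspinatus and next in the flexor libraries, and its part in these lists was not tested.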

How the data were processed

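Total RNA was purified with the miRNeasy Micro kit and DNase I, per the labels' protocols. The submitters' processing notes name HISAT2, FastQC, edgeR and the build rn6, while the tool for counting, its annotation release and its use of strand were not given in the sources used here. The authors deposited whole-number counts per gene for 16 libraries. Their second deposited table, per the file headers, holds mean log2 CPM, log2 fold changes, p-values and FDR values of the 6 pairs for 12588 genes.

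Counts were filtered with filterByExpr (minimum count 10, minimum total 15), which left 16948 genes, scaled by TMM and fitted in edgeR 4.0.16 (R 4.3.3) with 1 coefficient per tendon, which left 12 residual degrees of freedom. Each gene was tested among the 4 tendons and in 6 pairs with the quasi-likelihood test, with Benjamini-Hochberg adjustment over all genes within each comparison and a threshold of 0.05. Standard errors are absolute log2 fold changes divided by the root of the F statistic. Cell content scores are means of log2 CPM with a prior count of 2. In simulated data with few genes changed, in the Achilles alone, the test recovered known large changes. Most genes differed among the tendons in these data, a setting that the simulation did not cover. Exact permutation tests used numpy 2.4.6 and scipy 1.17.1, and figures matplotlib 3.10.9.

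The 32 genes, the 5 pathway lists and the 11 cell type lists were chosen with earlier results of these data known. Of 178 list genes 169 matched the table by name, 1 of them by an older symbol, and the others are not analysed here. Values in every library are given for genes with an adjusted p under 0.05 and no overlap of libraries whose higher tendon averaged 5 CPM or more, up to 6 per pair by fold change. Lama1 and the examples given by means were added to these after their values were seen. Of each pathway list up to 3 genes are named, by the smallest adjusted p among the 4 tendons at a mean of at least 5 CPM, and some that met this rule are not reported here. Genes overlapping on opposite strands may share reads, since the strand setting is not known.

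Alternatives were other size factors, library totals, DESeq2 1.42.0, limma-voom (limma 3.58.1), no filter, a filter of 1 CPM in 8 libraries, a replicate block, 4 cell content covariates, each library left out and Achilles 1 and patellar 1 left out together. Promoter sequences came from RefSeq (GRCr8), a later build than that of the counts, and were matched by gene symbol.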

Additional observations from a re-analysis of the deposited data

Results flagged for a closer look

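Values of single libraries were screened in each of the 120 groups of 4 libraries given by 30 genes and 4 tendons. A library was picked out where its distance to the nearest of the other 3 exceeded 0.829 of the range of the group. Chance alone picks out about 1 group in 20, and 5 were found.

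Ntn4 stood at 79.5 CPM in flexor 3, above 52.2 to 56.7 CPM in the other flexor libraries, and Smoc2 at 20.9 CPM in the same library, below 31.7 to 32.5 CPM. Lamb2 stood at 978 CPM in patellar 1, above 768 to 798 CPM in the other patellar libraries. Lamb1 stood at 151 CPM in patellar 2, below 175 to 179 CPM. Lama1 stood at 0.0123 CPM in supraspinatus 1, a single count, and at 0 in the other 3 supraspinatus libraries.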

How the results depend on the processing

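The 88 calls of a gene in a pair kept their direction under every alternative without a covariate. All 88 remained with the other size factors and with DESeq2, 79 on library totals, 83 with limma-voom, 83 without a filter, and 71 when each library was left out in turn. Leaving out 1 library at a time gave 23 to 27 genes among the 4 tendons, 13 to 17 for Achilles against flexor, 12 to 16 for Achilles against supraspinatus, 19 to 20 for flexor against patellar, 12 to 16 for flexor against supraspinatus and 16 to 20 for patellar against supraspinatus. For Achilles against patellar it gave 2 (without patellar 3) to 6 (without patellar 1), beside 4 with all libraries. Without Achilles 1 and patellar 1 together that count was 8, adding Lama2, Nid1, Nid2 and Smoc2 to the genes higher in the patellar tendon, and the share of the Col4a1 to Col4a2 ratio held by tendon was 93.9%. Lama1 was not tested under the stricter filter, and depth limited it in every setting, with 1 count in all in the supraspinatus libraries.

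By the numbers in the titles the libraries showed no clear pairing. The 24 same-numbered pairs correlated at -0.195 to 0.356 in their deviations from the tendon means, 9 of them over 0.1. Their median was 0.037, beside -0.036 over the 72 other pairs between tendons, and 5 of 16 libraries correlated best with their own number. Whether a number marks the same animal in each tendon is not settled by this, since libraries of the same animal need not deviate together. With the number as a replicate block, 25 of 30 genes passed among the 4 tendons, with 3, 14, 13, 20, 14 and 19 in Achilles against patellar, Achilles against flexor, Achilles against supraspinatus, flexor against patellar, flexor against supraspinatus and patellar against supraspinatus.

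With the muscle score 3 genes passed in Achilles against supraspinatus and 9 in patellar against supraspinatus. With the endothelial score 5 passed in Achilles against flexor, 10 in Achilles against supraspinatus, 6 in flexor against patellar and 9 in patellar against supraspinatus. With the Schwann cell score 7 passed in Achilles against supraspinatus. With the adipocyte score 5 passed in Achilles against flexor, 2 in Achilles against supraspinatus, 7 in flexor against patellar and 5 in patellar against supraspinatus. The cause was not tested.

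The following log2 fold changes turned in direction with a covariate, none past the threshold, and their cause was not tested. With the muscle score, Achilles against supraspinatus was -0.29 for Nid2 and 0.58 for Fras1. With the endothelial score, Achilles against flexor was -0.57 for Lama5, -0.53 for Lamb1 and -0.043 for Egflam, flexor against patellar was 0.82 for Lama5, 0.41 for Lamb1 and 0.36 for Egflam, and patellar against supraspinatus was -0.15 for Lamb1. With the Schwann cell score, Achilles against supraspinatus was -0.087 for Col4a4, -0.46 for Nid2 and 0.88 for Ntn4, and flexor against supraspinatus was -0.49 for Col4a5. With the adipocyte score, Achilles against flexor was -0.51 for Lamb1 and -0.27 for Nid2, and Achilles against supraspinatus was -0.046 for Col18a1, -0.12 for Nid1, -0.95 for Nid2 and 0.13 for Ntn4. With the same score flexor against patellar was 0.15 for Lamb1, and patellar against supraspinatus was -1.14 for Lamb1 and -0.53 for Nid2. The fitted value of Lama1 there was -0.067, from which no fold or direction is read at 1 count in the supraspinatus libraries.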
